A study of Mus musculus with 5 samples.

Results

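NF-kB is a family of dimeric transcription factors built from 5 subunits. The genes described here are the 5 subunit genes (Nfkb1, Nfkb2, Rel, Rela and Relb) and 5 genes of proteins that hold the factor in check or bind its dimers (Nfkbia, Nfkbib, Nfkbie, Tnfaip3 and Bcl3). They were taken by symbol, and all 10 were found among the 23337 genes of the deposited table and passed the filter on low values. The libraries came from mouse embryonic fibroblasts (MEFs) of strain 129Sv, and carry SV40T, a viral oncoprotein that blocks p53 and the retinoblastoma protein and lets cells divide without limit. Of 5 libraries of poly-T selected RNA, 3 were labelled wild type (WT) and 2 were labelled SIRT3 -/- (KO), and all cells were kept under normal conditions with no NF-kB stimulus named. SIRT3 removes acetyl groups from mitochondrial proteins, and by its title the study screened small molecules on cells that lack it. How many lines or cultures gave the libraries of a genotype is not in the labels. The p-values therefore speak only of differences among these 5 libraries, whose spread may be technical, and genotype and cell line cannot be told apart.

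In resting cells most NF-kB dimers are held in the cytoplasm by the IkB proteins, encoded by Nfkbia, Nfkbib and Nfkbie. Signals from cytokine and Toll-like receptors activate the IkB kinase (IKK), which marks the IkB proteins for breakdown and frees dimers such as that of p50 (from Nfkb1) and RelA. A second route, through the kinases NIK and IKK-alpha, processes the Nfkb2 product p100 to p52, which pairs mainly with RelB. The factor switches on several of its own inhibitors, among them Nfkbia and Tnfaip3, and so limits its own activity. In fibroblasts the pathway is best known for driving chemokine, adhesion molecule and matrix protease genes in response to tumour necrosis factor and interleukin 1.

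The regulatory sequences next to these genes are shown first, since this feedback works through sites bound by NF-kB. A RefSeq promoter table (GRCm38.p6, the assembly also named mm10), which covers 250 bases before and 50 after each annotated start, held 8 of the 10 genes, without Nfkb1 and Relb. The kappaB consensus, the motif of 10 bases bound by NF-kB dimers, was searched on both strands. It was found for 6 of these 8 genes (Nfkb2, Rel, Nfkbia, Nfkbie, Tnfaip3 and Bcl3) and not for Rela or Nfkbib. The only Bcl3 match lies after the annotated start, within the transcript, and is not printed below. Of all 27025 genes in the promoter table, 5.14% held a match, and so did 6.35% of the 9260 of them that were tested here. A match is a run of letters, not evidence of binding in these cells.

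Nfkbia and Tnfaip3 are inhibitor genes whose transcripts moved in opposite directions below, so the 250 bases before their starts are printed whole, 5′ to 3′ on the gene's own strand, with kappaB matches in capitals. Both genes lie on the minus strand, Nfkbia at chr12:55492648-55492897 and Tnfaip3 at chr10:19015411-19015660. The Nfkbia match ends 20 bases before its start, and the Tnfaip3 matches begin 125 and 12 bases before the start used here. Another listed Tnfaip3 start, with its promoter at chr10:19011914-19012213, held no match.
Nfkbia: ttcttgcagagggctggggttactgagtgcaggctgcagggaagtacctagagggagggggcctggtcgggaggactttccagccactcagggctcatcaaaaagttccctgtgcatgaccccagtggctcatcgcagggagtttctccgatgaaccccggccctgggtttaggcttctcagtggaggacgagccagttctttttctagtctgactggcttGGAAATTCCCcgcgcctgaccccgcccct
Tnfaip3: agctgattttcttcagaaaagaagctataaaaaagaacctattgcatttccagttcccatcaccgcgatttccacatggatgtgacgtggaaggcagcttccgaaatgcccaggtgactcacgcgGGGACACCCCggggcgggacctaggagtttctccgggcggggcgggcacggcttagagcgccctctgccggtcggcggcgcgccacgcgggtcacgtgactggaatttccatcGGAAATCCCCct

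For Nfkb2, Rel and Nfkbie only the match and up to 9 bases on each side are printed, so that the sites can be compared letter by letter. The Nfkb2 windows are chr19:46304689-46304717 and chr19:46304717-46304736 (plus strand, upstream of the first of its 3 listed starts), the Rel window is chr11:23771042-23771070 (minus strand) and the Nfkbie window is chr17:45555585-45555612 (plus strand). In the first Nfkb2 window and in the Rel window the capitals cover overlapping matches on opposite strands.
Nfkb2, farther from the start: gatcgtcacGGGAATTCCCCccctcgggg
Nfkb2, nearer to the start: gggccgaaaGGGGCTTTCCc
Rel: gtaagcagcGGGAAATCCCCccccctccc
Nfkbie: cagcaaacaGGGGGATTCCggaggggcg

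Reads were recovered from the deposited values as multiples of the smallest value above 0 in each library. Summed over the genes of the table, they ran from 33473103 to 41758681 per library. Sirt3 itself was at 169.7, 149.4 and 118.4 normalized read counts (reads divided by a size factor per library) in WT replicates 1, 2 and 3 and at 200.4 and 216.8 in KO replicates 1 and 2. Sirt3 was thus called higher in the libraries labelled KO (log2 fold change 0.53, limma adjusted p = 0.0044), with no overlap. With the median of its 91 tested neighbours within 5 Mb subtracted it was at 0.22 (adjusted p = 0.219). Since counts per gene do not show a deleted exon, every direction below is between libraries as labelled. Of 10 fibroblast markers, 9 were tested, 2 were called higher and 6 lower. All marker counts here stand beside 65.3% of all genes tested that were called (limma adjusted p under 0.05), 32.6% higher and 32.6% lower. Pdgfra was at 20013 ± 229 normalized read counts (SD, n = 3) in WT and 1255 ± 98.6 (SD, n = 2) in KO, and Col3a1 at 38821 ± 1127 and 8168 ± 56.4. The other way went Col1a2, at 94084 ± 1860 and 140861 ± 6639, which was at 0.04 with its local median subtracted (adjusted p = 0.394), and Col1a1 (log2 fold change 0.38). Vim was called lower, at 170475 ± 2636 in WT and 130905 ± 2771 in KO (log2 fold change -0.38). Lum was at most 1.11. Of 10 macrophage and blood markers, 4 were tested and 1 (Csf1r) was called higher. They summed to 291.8 to 314.7 in WT and 284.1 to 318.0 in KO, mostly Cd14, with Ptprc at most 8.90 and Cd3e at 0. Of 6 endothelial markers, 4 were tested and 2 (Kdr and Vwf) were called higher, at low levels. Of 6 epithelial markers, 2 were tested and 2 (Epcam and Krt19) were called higher, also at low levels. The endothelial markers summed to 26.7 to 37.0 in WT against 77.8 to 80.4 in KO. The epithelial markers summed to 23.7 to 33.3 in WT against 101.3 to 106.8 in KO. Tie1 and Krt5 were at 0. The part of all these markers in the results below was not tested. In bulk RNA, fewer cells of a kind and less RNA per cell cannot be told apart.

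Of the 10 genes, 8 differed between the groups: Tnfaip3 and Nfkb2 were higher in the libraries labelled KO, while Nfkb1, Relb, Nfkbia, Nfkbib, Nfkbie and Bcl3 were lower. Rela and Rel did not pass the test. A call is a Benjamini-Hochberg adjusted p under 0.05 in limma, over all 13062 genes tested, on the log2(normalized read count + 1) scale. These 8 of 10 genes (2 higher and 6 lower) stand beside 65.3% of all genes tested that were called, 32.6% higher and 32.6% lower, so the share called is read as no more than that background. The groups did not overlap for the same 8 genes, and for 75.4% of all genes tested. The authors' deposited table also called 8 of the 10, beside 50.5% of the genes it gives an adjusted p. Since whole stretches of chromosomes moved together, each gene is also set beside the tested genes within 5 Mb of it. With that local median subtracted, 1 of the 10 genes was called higher and 8 lower, beside 59.8% of genes called in either direction. Here and throughout, p-values after this subtraction use the gene's own standard error and take the local median as exact. They leave out the scatter of the neighbours, so they do not measure how unusual a gene is in its neighbourhood. A call with a difference of at least 2-fold was made for Tnfaip3 and Bcl3, 2 of 10, beside 13% of all genes tested. The median log2 fold change was -0.25 over the 10 genes and -0.0023 over all genes tested.

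**Figure D1:**
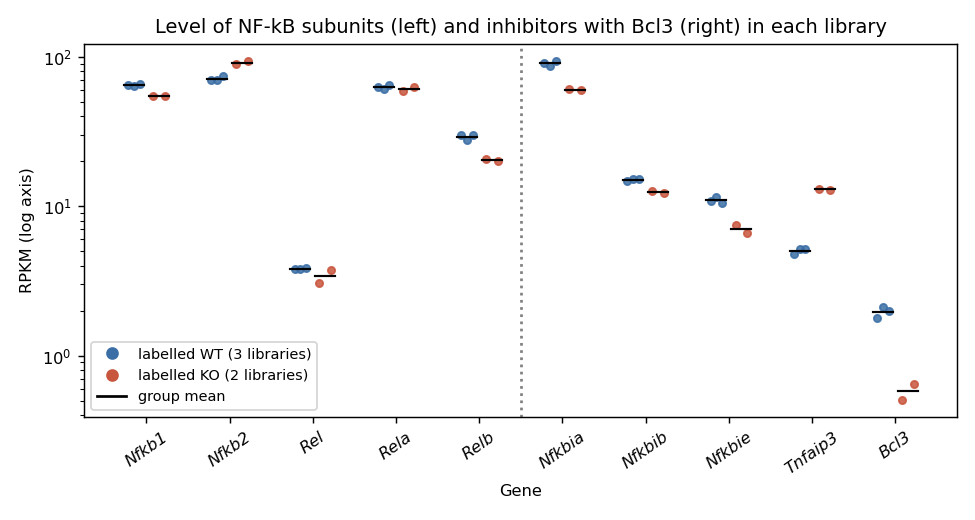
RPKM (reads per kilobase of transcript, scaled to library size, log axis) of each gene in the 3 libraries labelled WT (blue) and the 2 labelled KO (red), with group means as bars. Tnfaip3 rose from 5.05 to 13.0 and Bcl3 fell from 1.97 to 0.577, while the Rela libraries of both groups lie between 59.0 and 64.4.

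Per length of transcript, the genes spanned a wide range. In WT the order by mean RPKM was Nfkbia (90.8), Nfkb2 (71.6), Nfkb1 (64.9), Rela (62.9), Relb (29.3), Nfkbib (15.1), Nfkbie (11.0), Tnfaip3 (5.05), Rel (3.82) and Bcl3 (1.97), and only Nfkb1 and Rela overlapped as neighbours. In the libraries labelled KO, Nfkb2 led (91.7), followed by Rela (61.2), Nfkbia (60.4), Nfkb1 (55.0), Relb (20.5), Tnfaip3 (13.0), Nfkbib (12.5), Nfkbie (7.05), Rel (3.41) and Bcl3 (0.577). There Rela and Nfkbia were the neighbours that overlapped. Nfkbia thus went from the highest of the 10 transcripts to the third, and Tnfaip3 from the eighth to the sixth.

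Among the subunits, Rela, the transactivating partner of p50 in the main inducible dimer, did not pass the test. Rela (chromosome 19, 5637442 to 5648134, mm10) was at 6292, 6144 and 6443 normalized read counts in WT and at 5887 and 6410 in KO, so the KO libraries fall on either side of the lowest WT library. The log2 fold change was -0.03, with a 95% confidence interval of -0.12 to 0.05 (limma, adjusted p = 0.486). Its sign turned to 0.027 without KO replicate 1, and without KO replicate 2 it reached -0.10 (adjusted p = 0.0496). Its 202 tested neighbours had a median of 0.31, and with that subtracted Rela was called lower (-0.34, adjusted p = 4.1e-07).

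Rel, which encodes c-Rel, a subunit best known from lymphocytes, was the lowest subunit transcript. Rel (chromosome 11, 23736847 to 23770969) was at 360.6, 363.0 and 369.1 normalized read counts in WT and at 290.7 and 363.6 in KO. KO replicate 2 lay within the WT range and KO replicate 1 below it. The log2 fold change of -0.16 (95% confidence interval -0.38 to 0.06) did not pass (limma, adjusted p = 0.180), but it was -0.32 without KO replicate 2 (adjusted p = 0.0148), -0.0024 without KO replicate 1, and -0.45 with the median of its 31 tested neighbours (0.29) subtracted (adjusted p = 0.00082).

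Nfkb1, the source of p105 and of its processed form p50, was modestly lower in the libraries labelled KO. Nfkb1 (chromosome 3, 135584655 to 135691969) was at 9854, 9683 and 10082 normalized read counts in WT and at 8341 and 8478 in KO. Both KO libraries lay below all WT libraries, with means of 9873 ± 200 (SD, n = 3) and 8410 ± 97.0 (SD, n = 2). The log2 fold change was -0.23 (SE 0.0369, limma adjusted p = 1.2e-05).

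Nfkb2, the source of p100 and p52, was the subunit that rose. Nfkb2 (chromosome 19, 46300994 to 46312400) was at 8564, 8550 and 9003 normalized read counts in WT and at 10906 and 11491 in KO. All WT libraries lay below both KO libraries, and the log2 fold change was 0.36 (SE 0.0392, limma adjusted p = 4.9e-08). Genes around it were higher too: the 94 other tested genes within 5 Mb had a median log2 fold change of 0.55. With that median subtracted, the Nfkb2 value turned to -0.19 (adjusted p = 0.00027), so Nfkb2 was higher as measured and lower relative to its neighbourhood. On the other strand, Nfkb2 shares 531 exon bases (11.6% of its exon length in GENCODE M21) with the non-coding gene AC114539.1, for which no value was used here, and 299 (6.52%) with Psd, whose log2 fold change was -0.15. Nextera XT libraries do not mark strand, so reads from such shared bases cannot be told apart.

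Relb, the usual partner of p52, went the other way from Nfkb2. Relb (chromosome 7, 19606217 to 19629438) was at 2434, 2272 and 2438 normalized read counts in WT and at 1692 and 1651 in KO. The groups were well apart, and WT was 1.42-fold higher (log2 fold change -0.51, SE 0.0495, limma adjusted p = 9.4e-09). Bcl3, which binds the p50 and p52 homodimers and is a nuclear member of the IkB family, lies 179023 bp from Relb on the same chromosome (19808462 to 19822824) and was lower as well. In WT it was at 121.1, 144.4 and 134.1 normalized read counts, and in KO at 34.1 and 44.5, with no overlap and a 3.39-fold difference (log2 fold change -1.74, SE 0.192, limma adjusted p = 6.8e-08). Bcl3 is the lowest of the 10 genes, and its KO values rest on 31 and 40 recovered reads. It shares 161 exon bases (6.51%) with the antisense gene Gm16175, for which no value was used here. The genes within 5 Mb of Relb (84) and of Bcl3 (85) had median log2 fold changes of -0.18 and -0.17, and with these subtracted both stayed lower, at -0.33 and -1.57.

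**Figure D2:**
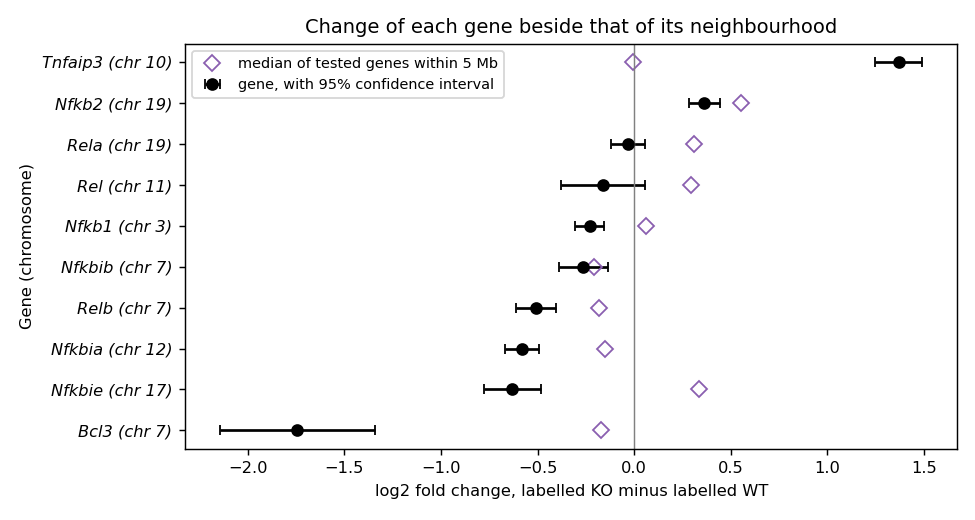
Log2 fold change (labelled KO minus labelled WT, limma) of each gene with its 95% confidence interval (black), beside the median of the other tested genes within 5 Mb (purple diamonds). Nfkb2 (0.36) lies below its neighbourhood (0.55), Nfkbib (-0.26) lies close to it (-0.21), and Tnfaip3 (1.37) and Bcl3 (-1.74) lie far from it.

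The sum of the 5 subunit transcripts was nearly level while its makeup shifted towards Nfkb2. Their summed RPKM was 232.0, 226.8 and 238.7 in WT and 227.7 and 235.8 in KO, and the groups overlap. Nfkb2 made up 30.4%, 31.0% and 31.0% of that sum in WT and 39.5% and 39.6% in KO. Nfkb1 held 27.9% ± 0.124 (SD, n = 3) in WT and 23.8% ± 0.534 (SD, n = 2) in KO, and Relb 12.6% ± 0.306 and 8.84% ± 0.451. The Rela share was 27.0% ± 0.0688 in WT and 26.4% ± 0.688 in KO, and the Rel share 1.64% ± 0.0288 and 1.47% ± 0.182. For none of the 5 shares did the groups overlap. The differences for Rela and Rel (-0.67 and -0.17 percentage points) were within the spread of the KO libraries and changed by more than 1.5 times without either of them, to -0.18 and -0.04 without KO replicate 1 and to -1.16 and -0.30 without KO replicate 2. An exact permutation test of 3 against 2 libraries has 10 arrangements and, with the tail doubled for 2 sides, no p below 0.2, so these shares are given as a description. Local medians were not taken out of the shares. On the log2 scale they were 0.55 around Nfkb2, 0.31 around Rela, 0.29 around Rel, 0.06 around Nfkb1 and -0.18 around Relb.

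**Figure D3:**
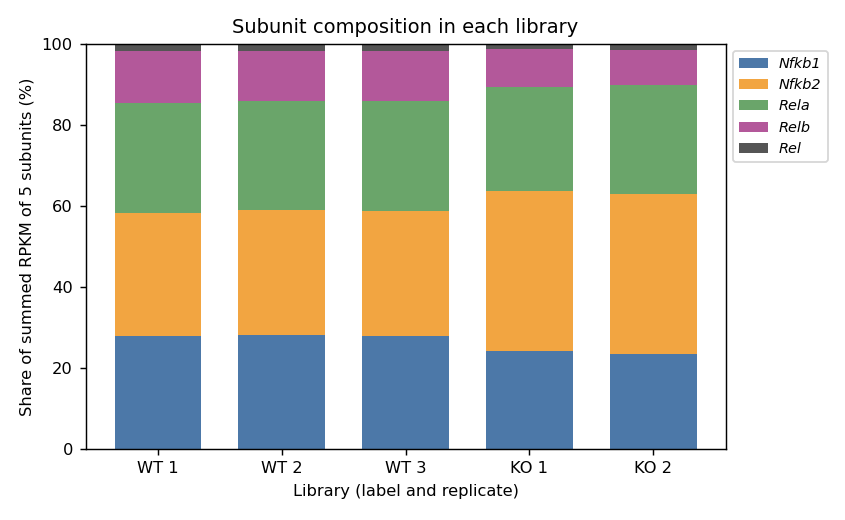
Share (%) of each subunit in the summed RPKM of the 5 subunits, 1 bar per library. The Nfkb2 part grows from 30.8% on average in the WT bars to 39.6% in the KO bars, the Nfkb1 and Relb parts shrink, and Rela stays near 27%.

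The 3 classical IkB genes were all lower in the libraries labelled KO. Nfkbia encodes IkB-alpha, the fast-acting inhibitor that NF-kB itself induces. Nfkbia (chromosome 12, 55489409 to 55492647) was at 5296, 5113 and 5479 normalized read counts in WT and at 3541 and 3540 in KO. The KO libraries were nearly equal and far below all WT libraries (log2 fold change -0.58, SE 0.0414, limma adjusted p = 6.3e-11). The means were 5296 ± 183 (SD, n = 3) and 3540.1 ± 0.656 (SD, n = 2). The kappaB match printed above for Nfkbia is 1 sequence beside this value and says nothing of what occupied it.

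Nfkbie, which encodes IkB-epsilon, the slower inducible inhibitor, fell by a similar amount. Nfkbie (chromosome 17, 45555700 to 45563169) was at 969.6, 1031 and 942.7 normalized read counts in WT and at 665.2 and 601.6 in KO, with no overlap. The log2 fold change was -0.63 (SE 0.0704, limma adjusted p = 8.2e-08). It lies among 78 tested genes with a median of 0.33, and after subtraction it was at -0.97, over 1.5 times the value as measured.

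Nfkbib encodes IkB-beta, a more stable inhibitor that is not strongly induced by NF-kB, and it showed the smallest fall of the 3. Nfkbib (chromosome 7, 28758251 to 28766644) was at 1054, 1094 and 1099 normalized read counts in WT and at 908.5 and 895.2 in KO. The groups did not overlap, and the log2 fold change was -0.26 (SE 0.0605, limma adjusted p = 0.00067). The 160 tested genes within 5 Mb had a median of -0.21, and with that subtracted the call was lost (-0.053, adjusted p = 0.463). On the other strand, Nfkbib shares 314 exon bases (14.5%) with Ccer2, for which no value was used here, and 42 (1.94%) with Sirt2, which was also lower, at -0.21.

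Relative to Rela within the same library, the 3 IkB transcripts were all lower in the libraries labelled KO. The log2 ratio of Nfkbia to Rela RPKM was 0.53, 0.51 and 0.54 in WT and 0.05 and -0.08 in KO, so Nfkbia exceeded Rela in all WT libraries and lay on either side of it in KO. For Nfkbib the ratio was -2.06 ± 0.0451 (SD, n = 3) in WT and -2.29 ± 0.102 (SD, n = 2) in KO, and for Nfkbie -2.52 ± 0.0997 and -3.12 ± 0.189. The summed RPKM of the 3 IkB genes was 116.4, 114.3 and 119.8 in WT and 80.9 and 79.0 in KO. Nfkbia made up most of that sum, at a mean of 90.8 in WT and 60.4 in KO. As a log2 ratio to Rela, that sum went from 0.89 ± 0.00555 to 0.39 ± 0.0983. In each of these ratios the groups did not overlap, and, as with the shares, an exact permutation test of 3 against 2 cannot reach 0.05. Local medians were not taken out of the ratios. They were 0.31 around Rela, -0.15 around Nfkbia, -0.21 around Nfkbib and 0.33 around Nfkbie.

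**Figure D4:**
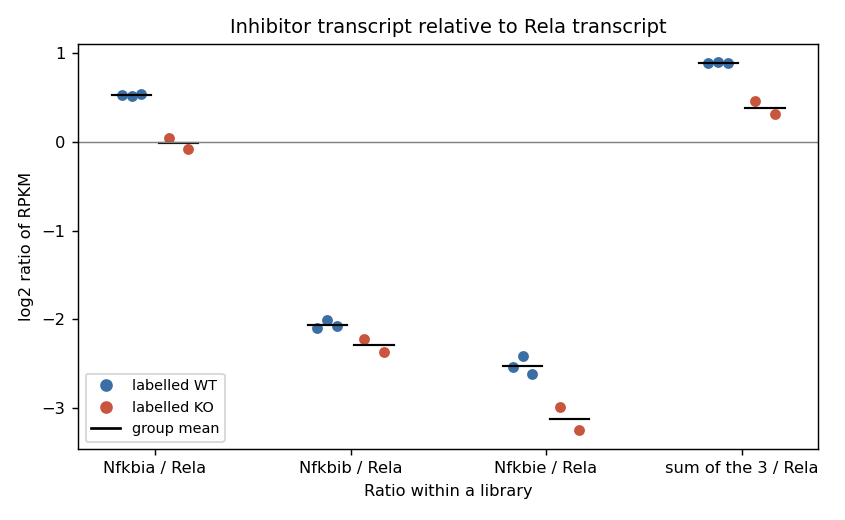
Log2 ratio of RPKM of each IkB gene, and of their sum, to Rela, per library, with group means as bars. A value of 0 means equal levels per length: Nfkbia lies at 0.51 to 0.54 in the WT libraries (blue) and on either side of 0 in the KO libraries (red).

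Tnfaip3 stood against the IkB genes. It encodes A20, a ubiquitin-editing enzyme that shuts off signalling upstream of IKK. Tnfaip3 (chromosome 10, 19000910 to 19015410) was at 808.7, 885.4 and 875.2 normalized read counts in WT and at 2208 and 2216 in KO. Both KO libraries were far above all WT libraries, with a 2.58-fold difference of the means (log2 fold change 1.37, SE 0.0585, limma adjusted p = 1e-14). Its 29 tested neighbours within 5 Mb had a median of -0.0049, so the value changed little with that subtracted (1.37). Of the 5 genes in this group, 4 were thus called lower and 1 higher, with a median log2 fold change of -0.58, beside 32.6% of all genes tested called in each direction. With local medians subtracted, Nfkbib drops out of the 4. The 6 genes with a kappaB match comprised 2 that rose (Nfkb2 and Tnfaip3), 3 that fell (Nfkbia, Nfkbie and Bcl3) and Rel, which did not pass.

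The rest of the pathway was read from 5 lists, and the genes named are the 3 with the smallest adjusted p among called genes whose groups did not overlap, unless said otherwise. Their counts stand beside the same 32.6% of all genes tested called higher and 32.6% called lower. Of the receptors, 10 of 11 were tested (Cd40 was too low), of which 2 were called higher and 4 lower, with a median of -0.04. Il1r1, the interleukin 1 receptor, was at 3710 ± 95.4 normalized read counts (SD, n = 3) in WT and fell to 1797 ± 46.0 (SD, n = 2). Tlr2, a receptor for bacterial lipoproteins, was 3.48-fold and Tnfrsf1b, the second receptor for tumour necrosis factor, 2.10-fold higher in WT. The 2 receptors that rose, named after their values were seen, were Tnfrsf11a, which encodes RANK (182.6 ± 14.1 to 400.2 ± 47.4), and Tnfrsf12a, which encodes the TWEAK receptor (8671 ± 208 to 10935 ± 372). For Tnfrsf12a nothing of the rise was left with the local median subtracted (0.01, adjusted p = 0.900), and Tnfrsf11a had too few neighbours for that value. Tnfrsf1a, the main receptor for tumour necrosis factor and also named after its values were seen, missed the threshold (3727 ± 28.3 to 3517 ± 5.51, limma adjusted p = 0.0753), but was called lower with its local median subtracted (-0.34, adjusted p = 2.6e-07).

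Adaptors and ubiquitin ligases carry the signal from receptors to IKK. Of 21 tested, 6 were called higher and 11 lower, with a median of -0.25. Ripk1, a scaffold kinase of the tumour necrosis factor receptor, fell from 4401 ± 43.1 to 3143 ± 39.4, and Traf6, a ligase of the Toll-like and interleukin 1 route, from 2186 ± 21.4 to 1602 ± 74.4. Traf3, which keeps the kinase NIK low and so restrains p100 processing, rose from 4421 ± 87.5 to 5979 ± 354 (log2 fold change 0.43). The number called higher was 3 without WT replicate 1.

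The IKK complex and the related kinases split. Of 8 tested, 2 were called higher and 4 lower, with a median of -0.10. Chuk, which encodes IKK-alpha, the kinase of the p100 route, rose from 3425 ± 58.6 to 7118 ± 294 (log2 fold change 1.05, limma adjusted p = 2.0e-15). It lies on chromosome 19 (44073334 to 44107505), near Nfkb2, among 101 tested genes with a median of 0.51, and it stayed higher with that subtracted (0.54, adjusted p = 2.3e-10). The other that rose, Ikbkb, which encodes IKK-beta and is named after its values were seen, went from 1721 ± 72.0 to 2375 ± 36.1, but equalled its neighbourhood (-0.0079 after subtraction, adjusted p = 0.903). Ikbke and Tbk1, kinases that also act in interferon induction, fell, from 457.4 ± 23.6 to 149.3 ± 22.4 and from 3260 ± 71.1 to 2207 ± 104. Map3k14, which encodes NIK and is named because its direction turned, was lower at -0.19 and 0.21 above its neighbourhood (adjusted p = 0.0026). The fall of Tbk1, -0.56, was -0.16 with the local median subtracted (adjusted p = 0.0041).

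Other negative regulators were evenly divided. Of 15 listed, 14 were tested, 5 called higher and 5 lower, with a median of -0.05. Nfkbiz, an atypical nuclear IkB listed here though it is not only an inhibitor, rose from 708.8 ± 37.9 to 1120 ± 59.6. Tnip1, which works with A20, fell from 1222 ± 52.5 to 853.2 ± 10.6, and Otud7b, a deubiquitinase, from 7876 ± 149 to 5720 ± 226. With local medians subtracted, 3 of the list were called higher.

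Of 27 listed target genes of NF-kB, 20 were tested, 3 called higher and 13 lower, with a median of -0.49, beside 32.6% each way and a median of -0.0023 over all genes tested. Of the 7 not tested, Saa3, Lcn2 and Nos2 were at 0 in every library. Tnfaip2, induced by tumour necrosis factor, went from 9824 ± 58.2 to 2270 ± 11.0, the matrix protease gene Mmp3 from 2458 ± 77.5 to 604.0 ± 58.4 and the chemokine gene Ccl2 from 2652 ± 93.4 to 740.1 ± 74.7. The 3 that rose, named after their values were seen, were the adhesion molecule gene Icam1, at 30.4 ± 2.56 in KO against 12.3 ± 3.91 in WT, Bcl2l1, which blocks apoptosis (log2 fold change 0.14), and Gadd45b, a stress response gene (0.27, and 0.56 with its local median subtracted). Sod2, the mitochondrial superoxide dismutase and another common target, likewise named after its values were seen, was at 2624 ± 55.2 and 2612 ± 11.7 (log2 fold change -0.0066, 95% confidence interval -0.10 to 0.09). Many of these genes also answer to other factors, and the list was drawn up with earlier results of these data known, so its count is no measure of NF-kB activity.

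**Figure D5:**
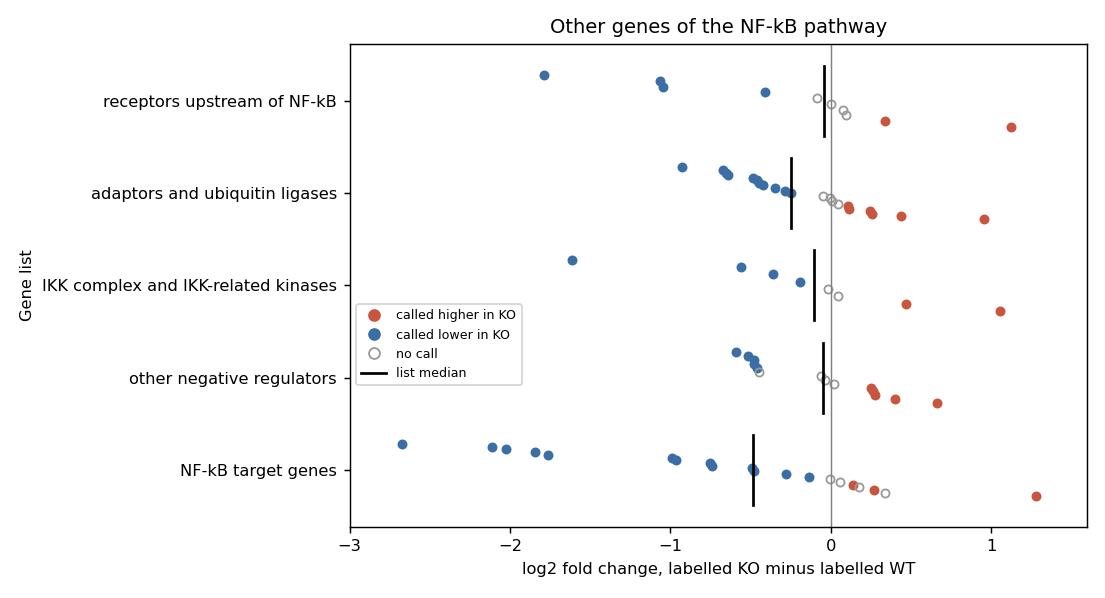
Log2 fold change (labelled KO minus labelled WT, limma) of the tested genes of 5 pathway lists, 1 point per gene, filled red where called higher, filled blue where called lower and open where not called, with the list median as a black bar. Most target genes lie to the left of 0 (median -0.49), while the other negative regulators are spread evenly (median -0.05).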

How the data were processed

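Libraries were prepared from poly-T selected RNA with the Nextera XT kit for the Illumina NextSeq, per the labels' protocols. STAR, DESeq2 and mm10 are named without versions or roles, per the submitters' processing notes. Not given in the sources used here: counter, annotation and strand setting. Signal values, as deposited, are read counts over a size factor, judged from the values: 100% were whole multiples of a step (tolerance 0.1 reads). Also deposited, per the file headers, are RPKM, the authors' log2 fold change and its error, the Wald score and p-values, raw and adjusted.

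Groups came from the sample titles. log2(value + 1) was tested, two-sided, with limma 3.58.1 (R 4.3.3) and its trended prior over the 13062 genes that reached 10 in 2 or more libraries. The test was also run on simulated counts with a small fixed spread and few changed genes. Those settings differ from these data, so that run does not vouch for the calls. The log2(value + 1) scale understates fold changes of low genes. edgeR 4.0.16 was an alternative on the recovered reads of 4 libraries, since 1 read of WT replicate 2 is worth 0.989, too near 1 to show scaled reads. Positions and promoters came from RefSeq (GRCm38.p6), with 20753 genes matched by symbol and 2305 by synonym. Local medians cover other tested genes within 5 Mb and are taken as exact in the p-values after subtraction. Otulin was found as Fam105b. The 10 genes and all lists were chosen with earlier results of these data known. Named were all 10 genes and Sirt3, per other list up to 3 called genes without overlap, by smallest adjusted p, and markers of other cell types at 0. Vim, Lum, Col1a1, Cd14 and Ptprc were named after their values were seen. Alternatives were other scalings, filters and pseudocounts, RPKM, each library left out, a replicate block, edgeR, the authors' comparison and the local median.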

Additional observations from a re-analysis of the deposited data

How the results depend on the processing

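Of the 10 genes, Nfkb1, Relb, Nfkbia, Nfkbie, Tnfaip3 and Bcl3 kept their direction and call under all 16 alternatives, which include edgeR on the recovered reads of 4 libraries and the authors' deposited table. Subtracting the local median moved the others: Nfkb2 turned to -0.19, Rel and Rela were called lower at -0.45 and -0.34, Nfkbib lost its call at -0.053, and 1 of the 10 genes was called higher in place of 2. By construction this setting removes what a gene shares with its neighbours. With libraries left out, Rel ranged from -0.32 to -0.0024 and Rela from -0.096 to 0.027, the highest being the value without KO replicate 1. Leaving out a library labelled KO leaves 1 such library, which is assumed to vary like the others. Over all genes, 3767 to 4026 were called higher and 3870 to 4128 lower with a library left out, against 4259 and 4264.

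Among the lists, the adaptors called higher ranged from 3 to 5 with a library left out. With local medians subtracted, an alternative added for the lists after seeing the data, 0 receptors and 3 other negative regulators were called higher. That setting covered 9 of the 10 tested receptors. Tnfrsf11a, called higher in the main test (log2 fold change 1.13), had too few neighbours for a value there. With normalized read counts in place of RPKM, the change in share was -5.44 percentage points for Nfkb1 and -2.60 for Relb, since RPKM divides by length. The replicate number as a block changed no call of the 10 genes. Only WT replicate 3 carries the number 3, so the block takes that library out of the comparison. Its log2 fold changes equal those without WT replicate 3 (1.39 for Tnfaip3 and -1.74 for Bcl3), so it is not a separate estimate among the 16 alternatives. Same-numbered libraries did not deviate together (r across genes -0.0098 for replicate 1 and -0.0050 for replicate 2), so the numbers were not read as pairs. The block called 3958 genes higher and 3947 lower. Depth limits Bcl3 most, at 31 to 146 recovered reads per library, where Nfkb1 had 7574 to 11149.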

Other observations

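A list of immediate early and stress genes, which respond within minutes to serum or heat, was read beside the inhibitors. All 10 were tested, with a median log2 fold change of 0.11. The 5 called higher were Fos, Fosb, Egr1, Ier2 and Dnajb1, the first 4 named after their values were seen. The 2 called lower were Jun and Hspa1b. These counts stand beside 65.3% of all genes tested that were called, 32.6% higher and 32.6% lower. For Fosb the groups overlapped, since WT replicate 3 (354.3, normalized) lay above KO replicate 1 (349.1). Jun, a subunit of AP-1, was at 8655 ± 268 normalized read counts (SD, n = 3) in WT and fell to 6847 ± 281 (SD, n = 2), and the heat shock gene Hspa1b fell from 3807 ± 154 to 3018 ± 62.9. Dnajb1, a co-chaperone gene, rose from 3039 ± 86.8 to 3558 ± 55.3. With local medians subtracted, Dnajb1 went from 0.23 to 0.11 and Hspa1b from -0.33 to -0.60 on the log2 scale, and Ier2 lost its call (0.01, adjusted p = 0.884). Their part in the Tnfaip3 and Nfkbia values was not tested.

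Rela, Nfkb2 and Chuk all lie on chromosome 19, where the 466 tested genes had a median of 0.32 on the log2 scale. The medians of the other chromosomes that hold subunit or inhibitor genes were 0.30 for chromosome 17, 0.05 for chromosome 3, -0.04 for chromosome 7, -0.09 for chromosome 11, -0.16 for chromosome 12 and -0.21 for chromosome 10.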
